A study of Mus musculus with 8 samples.

Results

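The Hox genes encode homeodomain transcription factors that lie side by side in 4 clusters, Hoxa on chromosome 6, Hoxb on chromosome 11, Hoxc on chromosome 15 and Hoxd on chromosome 2 (mm10). Each locus was the body of a listed Hox gene (RefSeq, GRCm38.p6, of which mm10 is the browser's name) with 2 kb added on each side. The list held 38 genes (10 of Hoxa, 10 of Hoxb, 9 of Hoxc and 9 of Hoxd) of 21883 protein-coding loci, and the rule that names them uses no measured value. Open chromatin had been mapped by ATAC-seq, where a transposase cuts accessible DNA and tags it with adapters. The cells were primary common myeloid progenitors of wild-type C57BL/6 bone marrow, 40000 to 50000 per preparation.

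All 4 populations were sorted as KIT+ CD16/32- cells, and each was profiled in 2 libraries. C2 cells were CD34bright CD41+ CD9+. C18 cells were CD34dim CD41+ CD9+ CD48dim, and C10 cells were CD34dim CD41+ CD9+ CD48bright. C13 cells were CD34dim CD41- CD9-. Whether the 2 libraries of a population are separate animals is not in the labels, so all p-values measure the spread between libraries alone, and that spread may be technical. The data are lists of accessible intervals (peaks), 1 list of the caller F-Seq and 1 of HOMER for each library, with no read counts, so the depth is unknown. Because these are sorted pools, fewer cells with an open site and less opening per cell cannot be told apart.

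Within a cluster all the listed genes are transcribed in the same direction, and genes of the same paralog number in different clusters descend from a common ancestor. Low paralog numbers mark the 3' end of a cluster and high numbers the 5' end. In the embryo they specify position along the body axis, opening in order from the 3' end. In blood, genes of the Hoxa and Hoxb clusters are active in stem and progenitor cells and are shut down as cells mature. Trithorax proteins such as KMT2A keep them open, Polycomb proteins keep them closed, and PBX and MEIS proteins bind DNA together with the HOX proteins.

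The clusters also hold microRNA genes. Of the 6 microRNA genes, Mir196b on the minus strand at chr6:52230081-52230165, between Hoxa9 and Hoxa10, was under an F-Seq peak in 8 of 8 libraries. HOMER placed a peak over it in 1 library, C10 replicate 2. Mir196a-1 (Hoxb), Mir196a-2 (Hoxc), Mir10a (Hoxb), Mir10b (Hoxd) and Mir615 (Hoxc) were under no peak of either caller in any library. The mature 5p sequences of the miR-196 and miR-10 families are shown from RefSeq because members of a family share a seed (bases 2 to 8, in capitals) while lying in different clusters.
miR-196b-5p: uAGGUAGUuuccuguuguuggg
miR-196a-5p: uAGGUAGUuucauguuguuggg
miR-10a-5p: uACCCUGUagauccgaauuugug
miR-10b-5p: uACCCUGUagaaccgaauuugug
The seed AGGUAGU of miR-196b-5p is thus also that of miR-196a-5p, which is made from Mir196a-1 and Mir196a-2. Of the genes that carry this seed, the copy in the Hoxa cluster lay under F-Seq peaks and the copies in Hoxb and Hoxc did not.

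A peak within 500 bases of the gene start was found in all 8 F-Seq lists at 3 of 38 Hox genes, Hoxa3, Hoxa10 and Hoxb4. HOMER gave the same 3 genes. Over all 17491 protein-coding genes with a promoter in the RefSeq table the share was 54.6% with F-Seq and 48.9% with HOMER. At the other end, 10 Hox genes had no F-Seq peak near the start in any library, against 29.8% of all genes, and 17 had no HOMER peak, against 31.5%. Without the C18 libraries, 6 of 38 Hox genes had an F-Seq peak at the start in all 6 remaining lists, against 58.3% of all genes. For 16 members absent from the promoter table the start was the 5' end of the gene body. Of the 22 members in that table, 3 had a peak in all 8 lists (13.6%) with either caller. Of 41 other homeobox genes of development in the table, 10 did with F-Seq (24.4%) and 4 with HOMER (9.76%). A share below that of all genes was thus not particular to Hox genes.

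The 250 bases before the start (GRCm38.p6, shown 5' to 3' on the gene's strand) are given for those 3 genes, and for Hoxa13 as a contrast because its start had no peak of either caller. Capitals mark CG pairs, the sites of DNA methylation that are dense in CpG islands. Hoxa3 (minus strand, chr6:52213068-52213317) holds 18 CG pairs and Hoxa10 (minus strand, chr6:52240855-52241104) holds 7. Hoxb4 (plus strand, chr11:96318017-96318266) holds 14, and Hoxa13 (minus strand, chr6:52260881-52261130) holds 35, the most of the 24 Hox promoters.
Hoxa3: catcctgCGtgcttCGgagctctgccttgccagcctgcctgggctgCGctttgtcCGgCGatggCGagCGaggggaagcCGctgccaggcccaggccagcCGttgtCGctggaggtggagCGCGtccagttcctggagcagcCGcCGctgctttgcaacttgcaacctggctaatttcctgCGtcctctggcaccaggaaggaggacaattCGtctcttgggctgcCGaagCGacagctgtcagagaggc
Hoxa10: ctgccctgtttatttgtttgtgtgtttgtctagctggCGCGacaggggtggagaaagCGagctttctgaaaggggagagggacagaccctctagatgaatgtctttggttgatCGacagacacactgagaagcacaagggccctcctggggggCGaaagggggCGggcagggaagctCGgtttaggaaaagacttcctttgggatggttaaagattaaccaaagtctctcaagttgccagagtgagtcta
Hoxb4: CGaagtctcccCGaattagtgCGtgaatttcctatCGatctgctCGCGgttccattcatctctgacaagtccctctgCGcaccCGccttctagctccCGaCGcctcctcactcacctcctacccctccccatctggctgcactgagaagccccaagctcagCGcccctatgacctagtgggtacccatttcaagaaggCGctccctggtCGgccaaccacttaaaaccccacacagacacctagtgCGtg
Hoxa13: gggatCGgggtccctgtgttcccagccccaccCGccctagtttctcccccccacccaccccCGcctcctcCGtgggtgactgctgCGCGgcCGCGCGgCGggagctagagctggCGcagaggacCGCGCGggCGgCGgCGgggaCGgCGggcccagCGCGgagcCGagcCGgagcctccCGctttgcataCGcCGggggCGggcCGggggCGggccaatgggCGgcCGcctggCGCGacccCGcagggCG
Over the 24 promoters of the 22 matched Hox genes the median was 12.5 CG pairs in 250 bases, with a range of 2 to 35, and over 21262 promoters of all protein-coding genes it was 10. The 6 Hox promoters whose 250 bases lay at least partly under an F-Seq peak in 5 or more libraries (Hoxa3, Hoxa7, Hoxa10, Hoxb4, Hoxc4 and Hoxd11, for Hoxa10 and Hoxd11 at the upstream of 2 starts) had a median of 7.5 CG pairs. The 6 under no peak (Hoxa2, Hoxa13, Hoxb8, Hoxd3, Hoxd4 and Hoxd8) had a median of 9, and the 12 under a peak in 1 to 4 libraries had 20. Hox promoters rich in CG pairs were found both with and without peaks.

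**Figure D1:**
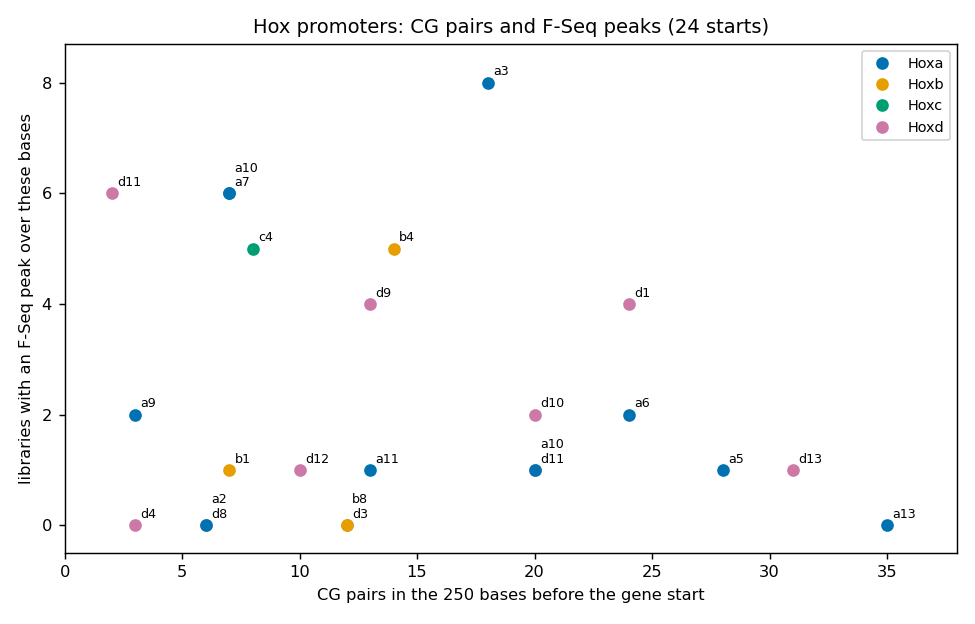
CG pairs in the 250 bases before each of 24 Hox gene starts (x axis) against the number of libraries with an F-Seq peak over those bases (y axis, 0 to 8), coloured by cluster. Hoxa3 (18 pairs) is covered in 8 libraries, while Hoxa13 (35 pairs) is covered in none.

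Known recognition words were counted in the same bases on both strands, as a description of the letters only. The PBX-HOX word TGATNNAT was present in 4 of 24 Hox promoters (16.7%, against 6.68% of all promoters) and the CDX word TTTATG in 5 (20.8%, against 8.95%). The MEIS word TGACAG was present in 2 (8.33%, against 15.4%), 1 of them Hoxa3. The GATA word AGATAA was present in 0 of 24, against 8.81% of all promoters.

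Taking whole loci, 12 of 38 Hox loci (31.6%) were under an F-Seq peak in all 8 libraries, against 69.4% of all protein-coding loci. A further 23 were under a peak in 1 to 7 libraries. The remaining 3, Hoxb13, Hoxc8 and Hoxc12, were under none (17% of all loci were under none). With HOMER, 7 of 38 were under a peak in all 8 libraries, against 62.6% of all loci, and Hoxa5 and Hoxa6 were under none (17.6% of all loci). The 63 other homeobox genes of development listed for comparison, such as the Dlx, Pax and Lhx genes, were under an F-Seq peak in all 8 libraries at 43 loci (68.3%). With HOMER the count was 19 of 63 (30.2%), nearer the 18.4% of Hox loci than the 62.6% of all loci. The median Hox locus had 0.502 kb under F-Seq peaks, against 2.08 kb over all loci and 2.16 kb over the other homeobox loci. Hox loci are shorter, with a median of 7.72 kb against 21.2 kb over all loci, and per base the gap was small. The median share of a locus under F-Seq peaks was 5.72% for Hox loci, 6.79% for all loci and 18% for the other homeobox loci. These kilobases were scaled to the mean covered length of the 8 lists, and 27 of 38 Hox loci share bases with a neighbouring Hox locus, so neighbours can carry the same peak.

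The clusters differed in how many of their loci were covered throughout. All 8 libraries had a peak at 5 of 10 Hoxa loci, 4 of 10 Hoxb loci, 0 of 9 Hoxc loci and 3 of 9 Hoxd loci. By paralog number the counts were 4 of 11 for groups 1 to 4, 3 of 11 for groups 5 to 8 and 5 of 16 for groups 9 to 13. Paralog group 3 was covered in all 8 libraries in each of its 3 clusters (Hoxa3, Hoxb3 and Hoxd3). These 3 have the longest bodies, which offer more bases to a peak.

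**Figure D2:**
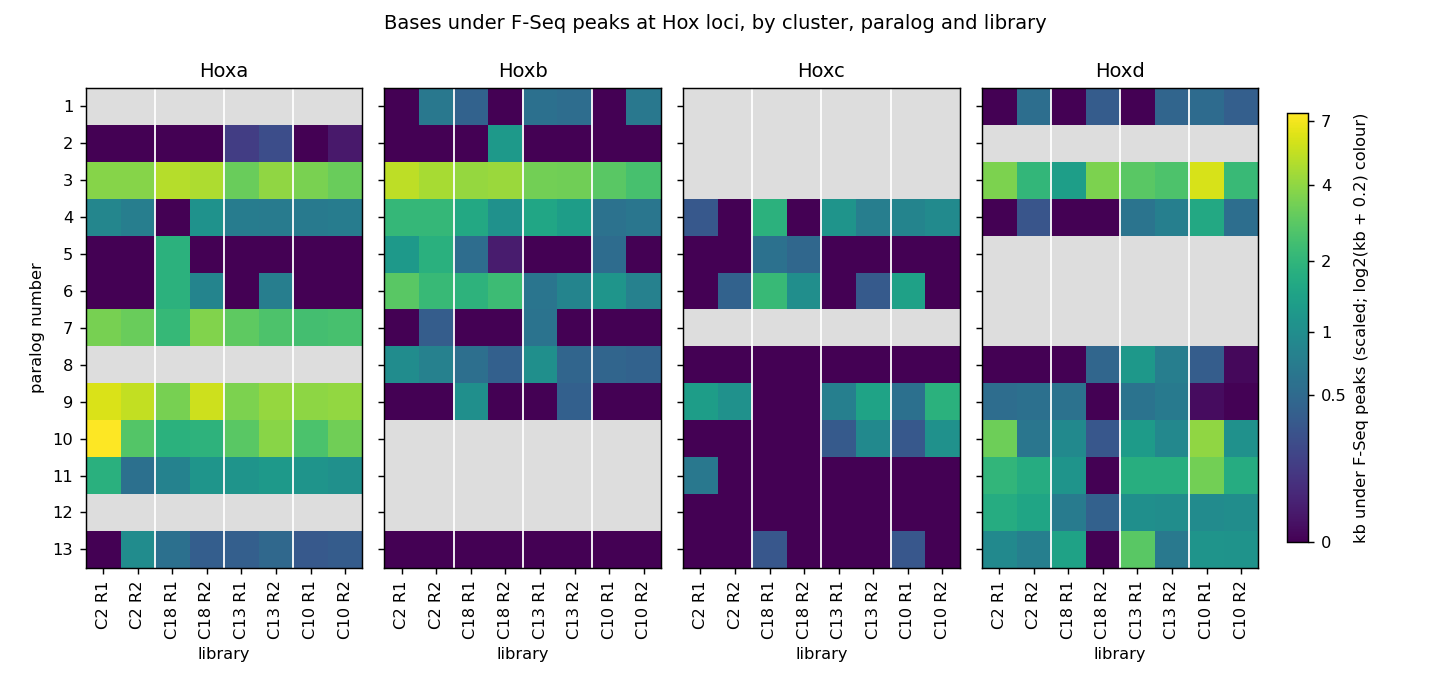
Kilobases under F-Seq peaks (colour, log2(kb + 0.2) scale, scaled to the mean covered length) at each Hox locus, by cluster (panels), paralog number (rows) and library (columns, R1 and R2 are replicates 1 and 2). Grey marks numbers without a listed gene. Paralog 3 is bright in Hoxa, Hoxb and Hoxd, and the Hoxc panel is dark in most rows.

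The C18 lists stood apart before any Hox result. Each F-Seq list ends at 100000 peaks, and the C18 peaks had a median width of 491 and 618 bases against 691 to 800 in the other 6 lists. Scaling to the mean covered length multiplied C18 bases by 1.43 and 1.13, against 0.885 to 1.00 in the other 6 lists. Of all F-Seq peaks, 42.4% and 42.0% overlapped a HOMER peak in C18, against 71.1% to 94.4% elsewhere. Inside the 4 clusters only 9 of 35 F-Seq peaks of C18 replicate 1 and 12 of 42 of replicate 2 did so, against 61.4% to 94.4% in the other libraries. The part of these list differences in the results on C18 was not tested, so HOMER values or values without C18 stand beside the Hox loci at which C18 lay apart. Markers of other cell types also moved (limma, adjusted p under 0.05, 9 loci per list). In C13 against C10 and C18, 7 erythroid, 4 megakaryocyte and 1 stem cell loci were lower, and 1 granulocyte and monocyte, 2 lymphoid and 3 stromal loci were higher. In C10 against C18, 4 stem cell and 3 lymphoid loci were higher, 3 erythroid loci were lower, the granulocyte and monocyte list had 1 higher and 3 lower, and the stromal list 3 higher and 1 lower. In C2 against C10 and C18, 0 of these loci passed, with 1 to 5 per list at an unadjusted p under 0.05. Their part in the Hox results was not tested.

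Across a whole cluster, from the first to the last listed gene with 2 kb on each side, Hoxa was the most covered and Hoxc the least. The mean share of bases under F-Seq peaks was 15.1% for Hoxa (102.464 kb), 8.69% for Hoxd (100.918 kb), 4.32% for Hoxb (177.939 kb) and 2.92% for Hoxc (119.726 kb). Over all protein-coding loci the mean share was 5.51%. With F-Seq, Hoxa lay above that share in every library and Hoxc below it. With HOMER, where the share over all loci was 1.61%, Hoxa (2.18% to 3.95%) again lay above, and Hoxc (0% to 2.63%) lay above it in both C13 libraries and C10 replicate 2.

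The Hoxb cluster differed between the populations. Its share under F-Seq peaks was 5.5% and 5.96% in C2, 4.52% and 5.0% in C18, 3.89% and 3.99% in C13, and 2.80% and 2.93% in C10. After scaling no 2 populations overlapped, and the order was C2, C18, C13, C10. In scaled kilobases the means were 10.2 ± 0.582 in C2, 8.48 ± 0.606 in C18, 7.01 ± 0.131 in C13 and 5.09 ± 0.166 in C10 (SD, n = 2 each). Unscaled, C18 had 5.64 and 7.89 kb and overlapped C13 (7.58 and 8.03 kb) and C10 (5.26 and 5.81 kb). C2 was highest there too, at 9.75 and 10.8 kb. Populations accounted for 98.2% of the variance between libraries (exact permutation test over all ways of pairing the 8 libraries, one-sided, p = 0.00952, the smallest it can give, 0.0381 adjusted over the 4 clusters). The same test gave an adjusted p of 0.190 on unscaled bases, 0.210 on the 50000 strongest peaks, 0.0762 on F-Seq peaks that also overlap a HOMER peak, 0.0762 without C2 replicate 2, and 0.143 on the HOMER lists. Without C18 the populations still did not overlap, but the smallest p that test can give is 0.0667. In the HOMER lists the share was 1.37% and 1.52% in C2, 0.663% and 0.777% in C18, 1.66% and 1.43% in C13, and 1.13% and 1.77% in C10, so C18 alone lay below the other 6 libraries there.

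The other clusters did not pass this test on the F-Seq lists. Hoxa ranged from 16.0% to 20.8% in C2 and from 12.8% to 15.9% in the other 6 libraries (exact permutation test, adjusted p = 0.419). Hoxd ranged from 5.13% in C18 to 14.4% in C10, and the C10 libraries, at 14.4% and 7.18%, were farthest apart (exact permutation test, adjusted p = 0.419). Both C18 libraries (5.41% and 5.13%) lay below the other 6 there. With HOMER they did too, at 0% and 0.343% against 1.17% to 1.89% (exact permutation test, adjusted p = 0.143). Hoxc ranged from 1.54% in C2 to 4.68% in C18 (exact permutation test, adjusted p = 0.695). In the HOMER lists Hoxc did pass, with 0.565% and 0.940% in C2, 0.329% and 0% in C18, 2.63% and 1.92% in C13, and 1.17% and 1.71% in C10 (exact permutation test, adjusted p = 0.0381). The order of the populations at Hoxc thus depended on the caller.

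**Figure D3:**
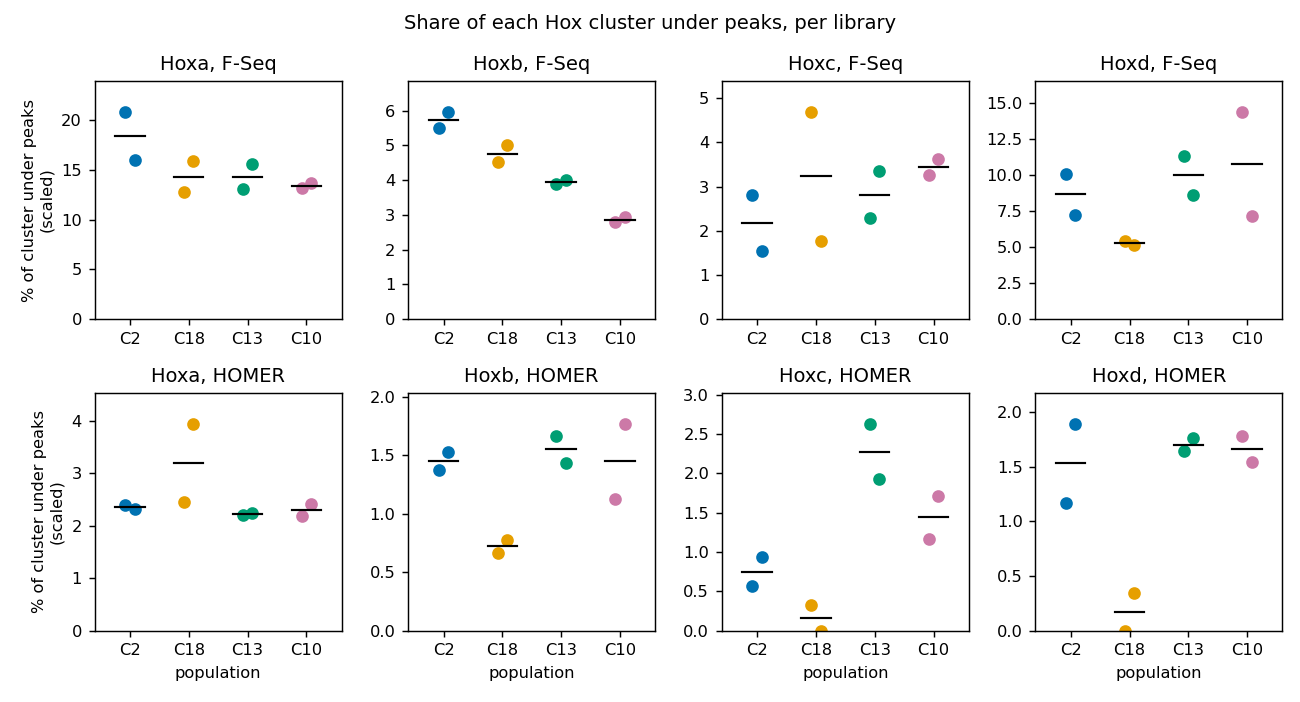
Share of each cluster under peaks (y axis, %, scaled, starting at 0) for the 4 populations (x axis), F-Seq above and HOMER below. Points are libraries and bars are means of 2. In the Hoxb F-Seq panel the populations do not overlap, from 5.96% in C2 to 2.80% in C10.

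In the Hoxa cluster the cover was centred on Hoxa7, Hoxa9 and Hoxa10, genes used by myeloid progenitors and often raised in acute leukaemia. Hoxa9, the partner of MEIS1 in leukaemia models, had 6.04 and 5.28 kb under F-Seq peaks in C2, 3.46 and 5.65 kb in C18, 3.56 and 4.14 kb in C13, and 3.95 and 4.08 kb in C10. That is 54.6% of the locus on average, and C2 replicate 1 was the highest library. Hoxa3, whose long body spans Hoxa4 to Hoxa6, had 3.74 and 3.75 kb in C2, 4.91 and 4.74 kb in C18, 3.14 and 3.98 kb in C13, and 3.52 and 3.14 kb in C10. Both C18 libraries lay above the other 6 with F-Seq after scaling. In unscaled bases C18 had 3442 and 4198, and C13 replicate 2 was higher at 4502. With HOMER the C18 libraries had 0.787 and 1.59 kb, against 1.2 and 0.994 kb in C2. C13 and C10 had 0.76 to 0.895 kb with HOMER, so that C18 replicate 1 was not among the highest. Hoxa10 had 7.4 and 2.68 kb in C2, 1.85 and 1.92 kb in C18, 2.81 and 3.82 kb in C13, and 2.55 and 3.27 kb in C10. The highest value came from 1 C2 library, and the other C2 library lay among the rest.

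The remaining Hoxa loci were more thinly covered, apart from Hoxa7, which had 2.11 to 3.67 kb (40.8% of its locus on average). Hoxa11 was covered in 8 libraries, Hoxa4 and Hoxa13 in 7, Hoxa2 and Hoxa6 in 3 and Hoxa5 in 1. Hoxa6 had 1.90 and 0.845 kb in C18, 0.75 kb in C13 replicate 2 and 0 kb in the other 5 libraries. The C18 libraries were covered there by different peaks, and that of replicate 1 lay over the body of Hoxa5. HOMER had no peak at Hoxa6 in any library.

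**Figure D4:**
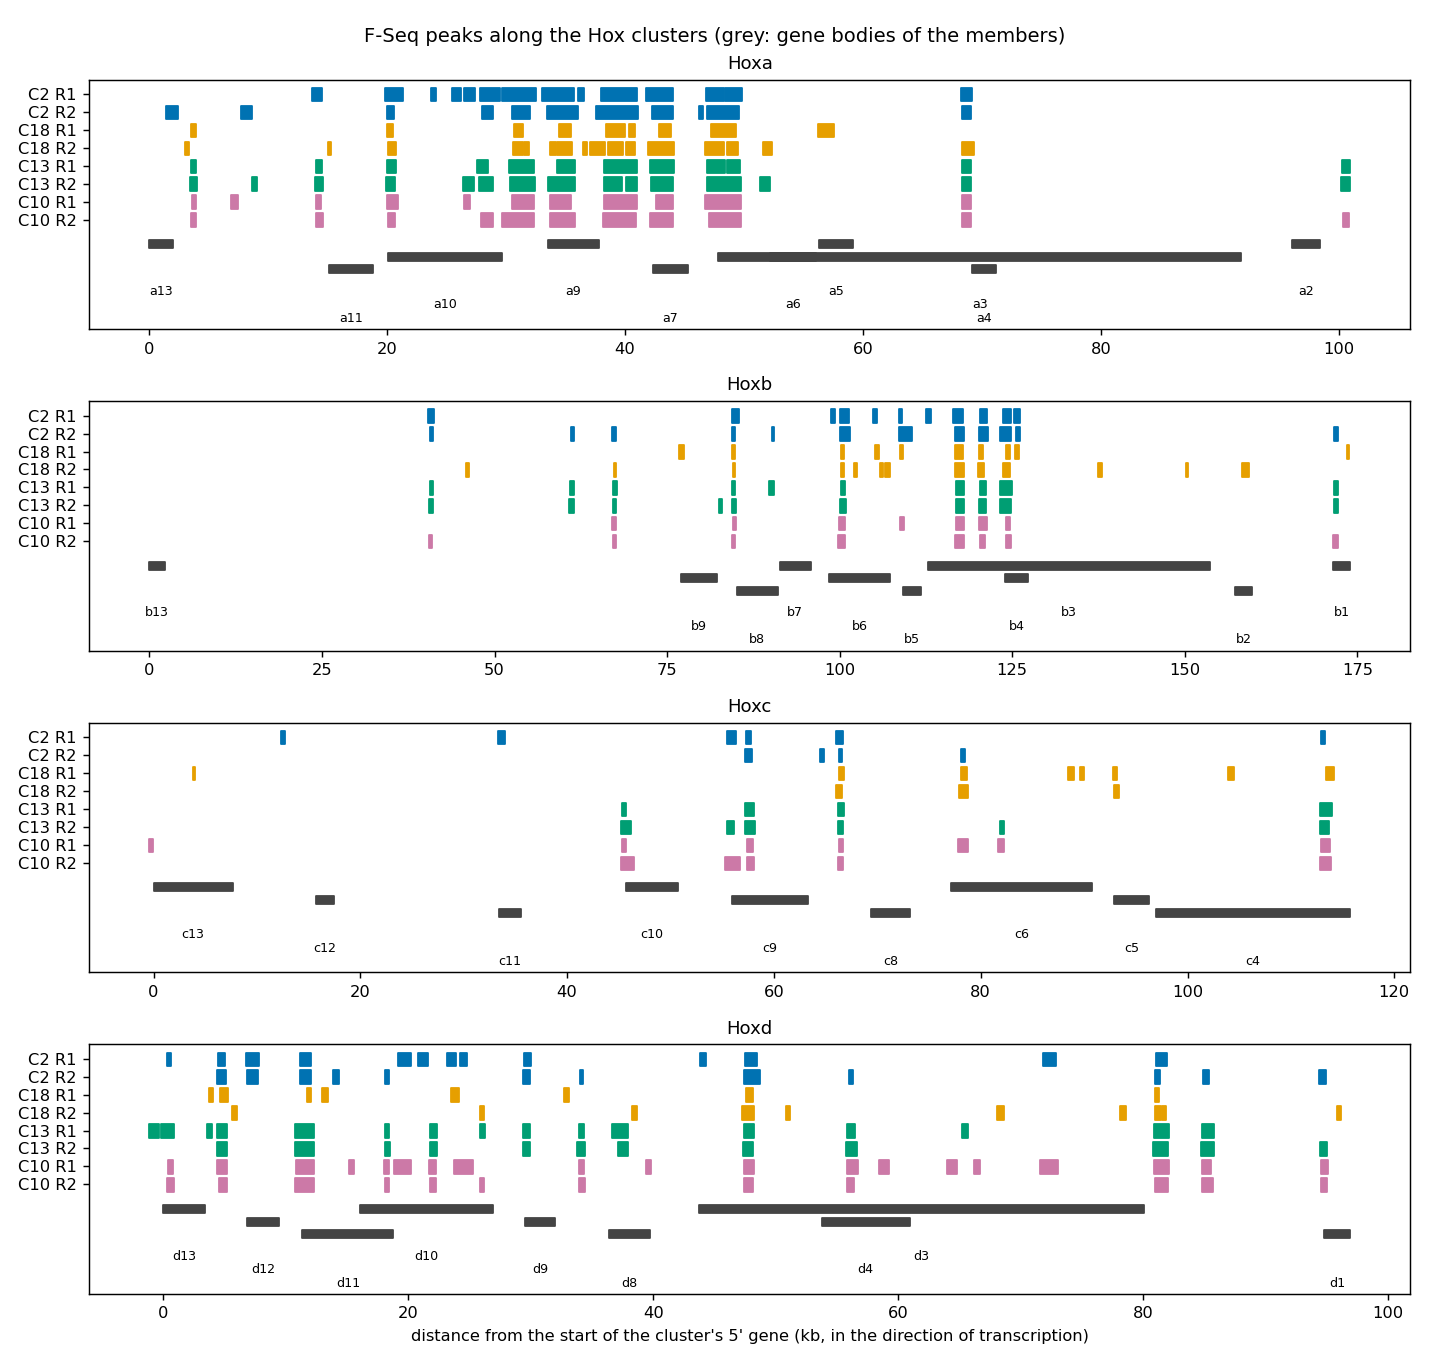
F-Seq peaks (coloured bars, 8 libraries as rows) along the 4 clusters, with the bodies of the listed genes in grey below. The x axis is the distance in kb from the start of the gene with the highest paralog number, in the direction of transcription. Peaks of all libraries pile up over Hoxa7 to Hoxa10, and the Hoxc row has wide stretches without any.

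In the Hoxb cluster the covered loci were Hoxb3, Hoxb4 and Hoxb6, and C2 was high at each with F-Seq. Hoxb3, a gene of stem and progenitor cells, had 5.16 and 4.58 kb in C2, 4.11 and 4.24 kb in C18, 3.34 and 3.28 kb in C13, and 2.82 and 2.46 kb in C10. After scaling the populations did not overlap at Hoxb3 with F-Seq. In unscaled bases C18 (2879 and 3761) overlapped C13 (3657 and 3706) and C10 (2983 and 2743). With HOMER, Hoxb3 had 1.60 and 0.882 kb in C2, against 1.11 to 1.17 kb in C13 and C10, so C2 replicate 2 lay below them. Hoxb4, which expands blood stem cells when supplied in excess, had 2.08 and 2.09 kb in C2, 1.60 and 1.06 kb in C18, 1.55 and 1.32 kb in C13, and 0.597 and 0.633 kb in C10. With F-Seq both C2 libraries were above the other 6 and both C10 libraries were the lowest. With HOMER, Hoxb4 had 0.786 and 0.441 kb in C2, 0.393 and 0.346 kb in C18, and 0.443 and 0.451 kb in C13. C10 had 0.245 and 0.328 kb there, so C10 was again lowest, but C2 replicate 2 was not above C13. Hoxb6, a gene of the myeloid lineage, had 2.84 and 2.15 kb in C2, 1.92 and 2.25 kb in C18, 0.629 and 0.834 kb in C13, and 1.13 and 0.801 kb in C10. C2 and C18 overlapped at Hoxb6 and lay above C13 and C10 with F-Seq. With HOMER, Hoxb6 had 0.393 and 0 kb in C18, 0.333 and 0.226 kb in C13, and 0.245 and 0.656 kb in C10, without that order.

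Hoxb5, whose activity marks long-lived stem cells in the mouse, had 1.22 and 1.82 kb in C2, 0.539 and 0.0632 kb in C18, 0 kb in C13, and 0.525 and 0 kb in C10. Both C2 libraries lay above the others here too. HOMER placed peaks at Hoxb5 in 7 of 8 libraries, C13 included. Hoxb8 was covered in all 8 libraries at 0.412 to 1.03 kb, and the other Hoxb loci were covered in 5 libraries or fewer.

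The loci at which both libraries of a population exceeded the other 6 in scaled F-Seq bases were then counted over all clusters. C2 had 4 (Hoxb3, Hoxb4, Hoxb5 and Hoxd12) of the 32 Hox loci covered in at least 2 libraries, and 5.74% of the 17522 protein-coding loci so covered had this pattern. C18 had 3 (Hoxa3, Hoxa6 and Hoxc5), against 17% of all loci. Of these, Hoxa3 and Hoxa6 did not separate in unscaled bases. At Hoxa6 C18 had 1332 and 749 unscaled bases, and C13 replicate 2 had 848. Hoxc5 counted as covered in at least 2 libraries through C18 alone. C13 had 3 (Hoxa2, Hoxd8 and Hoxd9), against 9.62%, and C10 had 0, against 5.26%. Of the 4 C2 loci 3 lay in Hoxb, where they share peaks.

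In the Hoxc cluster no locus was covered in all 8 libraries. Hoxc9, a gene of trunk patterning, had 1.32 and 1.08 kb in C2, 0 kb in both C18 libraries, 0.762 and 1.47 kb in C13, and 0.569 and 1.86 kb in C10. HOMER likewise listed Hoxc9 in 6 libraries, all but those of C18. Hoxc4 had 0.345 and 0 kb in C2, 1.90 and 0 kb in C18, 1.12 and 0.759 kb in C13, and 0.843 and 0.952 kb in C10. The replicates of C18 were as far apart as any pair of libraries at Hoxc4. Hoxc6 had 0 and 0.433 kb in C2, 2.14 and 1.02 kb in C18, 0 and 0.366 kb in C13, and 1.41 and 0 kb in C10. HOMER listed Hoxc6 in 5 libraries and in neither of C18.

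Hoxc10 and Hoxc5 had F-Seq peaks in different populations, and neither had one in C2. Hoxc10 had 0.366 and 0.923 kb in C13, 0.343 and 1.07 kb in C10, and 0 kb in all C2 and C18 libraries, and HOMER listed it in the same 4 libraries. Hoxc5 had an F-Seq peak only in C18, at 0.582 and 0.476 kb. HOMER listed Hoxc5 in 3 libraries, both of C13 and 1 of C10, and in neither C18 library, so the callers placed it in different populations. Hoxc11 was covered in 1 library and Hoxc13 in 2.

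In the Hoxd cluster, known for patterning of the trunk and limbs, the loci with most cover were Hoxd3, Hoxd11, Hoxd10 and Hoxd13. Hoxd3 had 3.53 and 2.05 kb in C2, 1.35 and 3.57 kb in C18, 2.83 and 2.56 kb in C13, and 5.98 and 2.17 kb in C10. Hoxd11 had 2.02 and 1.73 kb in C2, 1.13 and 0 kb in C18, 1.77 and 1.78 kb in C13, and 3.36 and 1.71 kb in C10. Hoxd10 had 3.22 and 0.634 kb in C2, 0.936 and 0.342 kb in C18, 1.27 and 0.907 kb in C13, and 4.02 and 1.06 kb in C10. At Hoxd3 and Hoxd10 C10 replicate 1 was the highest library, and the spread within C10 and C2 was as wide as the differences between populations.

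Hoxd4 had 0 and 0.325 kb in C2, 0 kb in both C18 libraries, 0.615 and 0.769 kb in C13, and 1.61 and 0.552 kb in C10. HOMER listed Hoxd4 in 5 libraries and in neither of C18. Hoxd12 had 1.71 and 1.5 kb in C2, 0.719 and 0.419 kb in C18, 1.04 and 0.997 kb in C13, and 0.968 and 0.997 kb in C10, with the C2 pair highest and the C18 pair lowest. HOMER listed Hoxd12 in 6 libraries and in neither of C18. The other Hoxd loci were covered in 5 to 7 libraries.

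CD34 was addressed by setting C2 against C10 and C18 together (their mean). All differences are given as log2(bases + 200), a scale on which thinly covered loci show too small a change. Of 32 Hox loci tested, 0 passed an adjusted p of 0.05 in limma, and 0.0285% of 17522 loci did. At an unadjusted p under 0.05 there were 8 Hox loci, 7 higher in C2 and 1 lower, or 25.0%, against 15.2% of all loci. Hoxb4 had the smallest p, with a log2 difference of 1.04 ± 0.209 (SE, limma adjusted p = 0.124). Hoxb3 gave 0.52 ± 0.119 (limma adjusted p = 0.145), Hoxb5 gave 2.05 ± 0.623 (limma adjusted p = 0.212) and Hoxb6 gave 0.72 ± 0.224 (limma adjusted p = 0.218). Outside Hoxb, Hoxd12 gave 0.93 ± 0.226 (limma adjusted p = 0.155) and Hoxc9 gave 1.47 ± 0.439 (limma adjusted p = 0.205). Hoxd9 gave 1.36 ± 0.527 (limma adjusted p = 0.294) and Hoxc5 gave -0.93 ± 0.260 (limma adjusted p = 0.188). Hoxc5 was covered in C18 alone, and Hoxc9 in neither C18 library. By cluster the median difference was 0.72 in Hoxb, with 7 of 8 tested loci positive, and -0.98 in Hoxc, with 5 of 6 negative. It was 0.03 in Hoxa and 0.27 in Hoxd, against 0.05 over all loci. Without the C18 libraries, where C2 is set against C10 alone, 3 Hox loci passed, as did 4.37% of all loci. They were Hoxb4 (1.49, limma adjusted p = 0.0336), Hoxb3 (0.84, 0.0384) and Hoxd9 (1.81, 0.0336), all higher in C2. Leaving out C18 replicate 1 alone gave 3 (Hoxb4, Hoxd9 and Hoxd12), beside 3.42% of all loci, and leaving out C18 replicate 2 gave 1 (Hoxa4), beside 1.7% of all loci.

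CD41 and CD9 were addressed by setting C13 against the same mean. Again 0 of 32 Hox loci passed in limma, although 6.87% of all loci did. At an unadjusted p under 0.05 there were 7 Hox loci (5 higher and 2 lower), or 21.9%, against 25.4% of all loci. The median log2 difference was 0.27 over the Hox loci and -0.07 over all loci. Without the C18 libraries, where C13 is set against C10 alone, 2 Hox loci passed, Hoxb4 (1.00, limma adjusted p = 0.0334) and Hoxd9 (1.98, 0.0199), as did 4.93% of all loci. Without C18 replicate 1 or C18 replicate 2 alone there were 3 each, with Hoxd9 in both, beside 17.4% and 13.8% of all loci. The HOMER lists gave 4 (Hoxc5, Hoxc6, Hoxc9 and Hoxd8), all higher in C13, beside 19.8% of all loci, a larger share than in Hox. HOMER listed Hoxd9 in neither C13 library.

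CD48 was addressed by C10 against C18. Here 7 of 32 Hox loci passed in limma (3 higher and 4 lower in C10), or 21.9%, and 16.8% of all loci did (6.49% higher and 10.3% lower), so the Hox share was near the background. Higher in C10 were Hoxc9 with a log2 difference of 2.65 ± 0.507 (SE, limma adjusted p = 0.0207), Hoxd4 with 2.54 ± 0.583 (0.0330) and Hoxc10 with 2.05 ± 0.511 (0.0413). Lower were Hoxc5 with -1.86 ± 0.301 (0.0153), Hoxb3 with -0.63 ± 0.138 (0.0298), Hoxa6 with -2.89 ± 0.731 (0.0429) and Hoxb6 with -0.98 ± 0.259 (0.0472). Hoxc5 was covered in the C18 libraries alone (408 and 422 unscaled bases). It met the filter of 2 libraries only through them, so the filter and the test used the same values. With the HOMER lists the signs of Hoxc5, Hoxb3 and Hoxb6 reversed, to 0.53, 0.30 and 0.84, and Hoxb6 also turned positive on the 50000 strongest F-Seq peaks (0.22) and on F-Seq peaks that overlap a HOMER peak (1.26). Hoxc9, Hoxd4 and Hoxc10 kept their sign under every alternative run for them, but the call was lost in 5 of 17 alternatives for Hoxc9, 11 of 17 for Hoxd4 and 11 of 16 for Hoxc10. Leaving out either C10 library removed every Hox call and most calls over all loci. Leaving out a C13 or C2 library also lowered both counts. With 1 library left out the difference was 1.94 to 3.36 for Hoxc9, 1.91 to 3.17 for Hoxd4 and 1.44 to 2.66 for Hoxc10. It was -0.72 to -0.53 for Hoxb3, -1.19 to -0.77 for Hoxb6 and -3.39 to -2.39 for Hoxa6. Hoxc5 could not be tested without either C18 library, and leaving out any other library could not change its difference of -1.86.

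A test over all 4 populations in the same fit called 6 of 32 Hox loci, against 16.9% of all loci. They were Hoxc5, Hoxb6, Hoxc9, Hoxb3, Hoxb4 and Hoxc10, with limma adjusted p from 0.0211 to 0.0442. Hoxb4 was the 1 locus of these that no single contrast called. Hoxc5 entered this test only through the C18 libraries, the only ones that covered it. Without either C13 library every call was lost, over all loci as well as Hox. Without C2 replicate 1 or either C10 library the calls fell, and without C18 replicate 1 they rose, over all loci as well. The HOMER lists called 9 and the F-Seq peaks that overlap a HOMER peak 11, beside 41.1% and 40.7% of all loci. Hoxa5, Hoxb2, Hoxb13, Hoxc8, Hoxc11 and Hoxc12 were not tested because fewer than 2 libraries covered them.

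Merging the peaks of the 8 F-Seq lists gave 101 regions in the 4 clusters, of which 14 were called in all 8 libraries (13.9%, against 19.1% of all regions) and 46 in 1 library (45.5%, against 40.2%). The 14 comprised 6 in Hoxa, 5 in Hoxb, 1 in Hoxc and 2 in Hoxd. Without the C18 libraries, 18 regions were called in all 6 lists, against 26.1% of all regions. Strength was read as the rank of a region's best peak in its list, where rank 1 is the strongest of 100000. The ranks are the authors' order and were not tested.

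The region at chr6:52219825-52223802, at the 3' end of Hoxa9, was the strongest Hox region in C2. Its rank was 7331 and 8382 in C2, 16825 and 17791 in C18, 39022 and 28765 in C13, and 19751 and 22859 in C10. C2 was highest and C13 lowest without overlap of those pairs with the others. The next region, at chr6:52224869-52227900 over the body and start of Hoxa9, had mean ranks of 19256.5 in C2 and 17814 in C18 against 45215.5 in C13 and 41556.5 in C10. The Hoxa9 regions thus ranked higher in C2 and C18 than in C13.

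In Hoxb the strongest shared region lay inside the Hoxb3 gene body at chr11:96310795-96312301. It ranked 16386 and 16929 in C2, 11303 and 9685 in C18, 21928 and 14443 in C13, and 30421 and 24041 in C10. C18 was strongest there and C10 weakest, and HOMER called the region in 8 of 8 libraries. The region over the Hoxb4 start, chr11:96317536-96319304, had mean ranks of 28686.5 in C2, 23825.5 in C18, 41147 in C13 and 40858.5 in C10. The shared Hoxd3 region, chr2:74715514-74716948, ranked between 17428 and 39714. The single shared Hoxc region, chr15:102987099-102987921 between Hoxc9 and Hoxc8, ranked between 50004 and 94850, in the weaker part of every list, and HOMER called it in 6 libraries and in neither of C18.

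**Figure D5:**
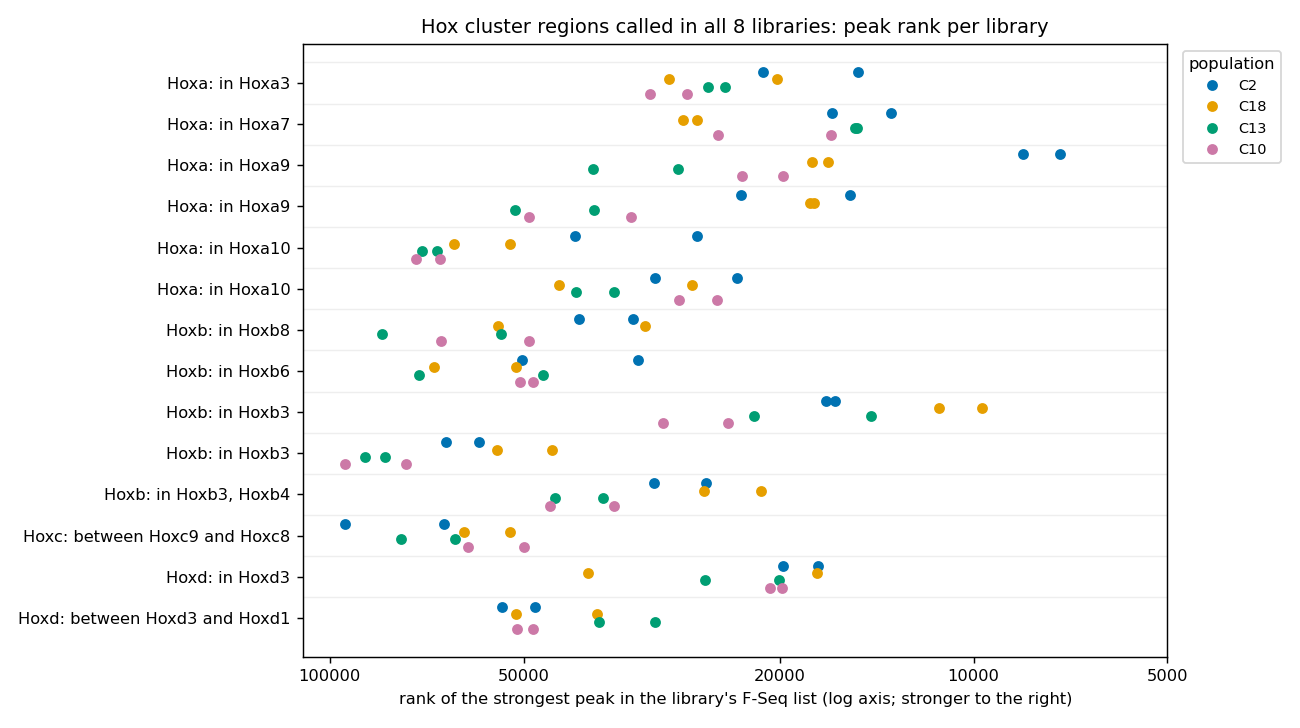
Rank of the strongest F-Seq peak (x axis, log scale, stronger to the right) in each library for the 14 Hox regions called in all 8 lists (rows), with 2 points per population. The C2 points of the first Hoxa9 region, at 7331 and 8382, are the farthest right.

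The DNA-binding partners of HOX proteins were read from a list of 9 genes, all tested. In limma 0 of 9 passed in the CD34 contrast (3 at an unadjusted p under 0.05). Meis1, the partner of HOXA9, had 30.3 and 27.1 kb in C2, 20.6 and 23.3 kb in C18, 22.9 and 23.5 kb in C13, and 29.6 and 30.5 kb in C10. It was higher in C10 than in C18 by 0.45 ± 0.113 (SE, limma adjusted p = 0.0411). Meis2 was also higher in C10 than in C18 (1.36 ± 0.326, limma adjusted p = 0.0371), and Pknox1 lower (-0.84 ± 0.202, 0.0382). Pbx3 gave -0.98 ± 0.288 (limma adjusted p = 0.0622).

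Among upstream regulators, 13 genes of the list of 16 were tested. In limma 0 of 13 passed in the CD34 contrast (1 at an unadjusted p under 0.05). Mllt10, a partner of the DOT1L methyltransferase, was lower in C13 by -0.56 ± 0.100 (limma adjusted p = 0.0276). Mllt3, another partner of DOT1L, was higher in C10 than in C18 by 0.87 ± 0.202 (0.0346). Cdx2, a homeobox gene that activates Hox genes in the embryo, was higher by 2.14 ± 0.365 (0.0165). Kmt2a, whose product maintains Hox expression, gave -0.91 ± 0.305 in that contrast (limma adjusted p = 0.0857).

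Of the genes that flank the clusters, Evx2, a homeobox gene beside Hoxd13, differed most. It had 3.17 and 3.23 kb in C2, 0.0784 and 0.112 kb in C18, 4.84 and 5.32 kb in C13, and 5.2 and 4.43 kb in C10, so that C13 and C10 overlapped and C18 was far below both. It was higher in C10 than in C18 by 4.09 ± 0.175 (SE, limma adjusted p = 0.00206) and higher in C13 than in C10 and C18 by 2.12 ± 0.152 (0.00562). Its neighbour Hoxd13 had 0.925 and 0.772 kb in C2, 1.45 and 0 kb in C18, 2.81 and 0.672 kb in C13, and 1.13 and 1.1 kb in C10. Of the 19 neighbours tested, 2 passed in C13 (Evx2 higher, Skap2 beyond the 3' end of Hoxa lower by -0.73 ± 0.148). Between C10 and C18, 4 passed, with Evx2 and Calcoco2 higher and Snx11 and Cbx5 lower in C10.

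The other homeobox genes gave the comparison group for these shifts. Of 61 tested, 23 were higher and 1 lower in C10 than in C18 (limma), with a median log2 difference of 1.43 against 0.00 for the Hox loci and -0.16 for all loci. Over all loci 6.49% were higher and 10.3% lower there. In C13 against C10 and C18, 10 were higher and 0 lower, with a median of 0.75 against 0.27 for the Hox loci. Of all loci 6.87% passed there. In C2 1 was higher and 0 lower, with a median of 0.29 against 0.19. With F-Seq, 46 of the 63 listed loci were covered in both C18 libraries, against 57 in C13 and 58 in C10. With HOMER the counts were 19 in C18, 62 in C13 and 60 in C10. Over all loci these shares ran from 72.8% to 75.7% with F-Seq and from 63.0% to 78.7% with HOMER. The part of C18 in the C13 median was not tested.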

How the data were processed

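ATAC-seq peak lists of 8 libraries (4 populations of 2) were used, on mm10 per the submitters' processing notes, which name Bowtie 1.0.0 and HOMER 1.0. For F-Seq, the version was not given in the sources used here. Per library, the authors deposited an F-Seq list with a signal per peak, and a HOMER list whose peaks span 150 bases and whose score columns carry no label. Signal served only to rank peaks. Bases under merged F-Seq peaks per locus were scaled to the mean covered length and tested as log2(bases + 200) in limma 3.58.1 (R 4.3.3), with 4 group means, eBayes with trend and Benjamini-Hochberg adjustment over 17522 loci covered in at least 2 libraries. The tests were checked on simulated data. Cluster shares (log2 of scaled kb + 0.2) were compared by an exact permutation test. Values in every library are given for loci past the threshold and the 3 most covered loci of each cluster. Hoxb5, Hoxd9, Hoxd12 and Hoxd13, and the names of loci called under an alternative, were added after their values were seen. The members and lists were chosen with earlier results of these data known. Alternatives were unscaled bases, HOMER lists, the 50000 strongest peaks, F-Seq peaks that overlap a HOMER peak, other extensions, filters and pseudocounts, a replicate block, and leaving out libraries. A result on a listed cofactor is not reported here.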

Additional observations from a re-analysis of the deposited data

How the results depend on the processing

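The lists hold no counts, so how far depth limits each value is unknown, and causes of the changes below were not tested. For C2 against C10 and C18, the count of 0 Hox loci became 2 of 18 with the 50000 strongest peaks (1.76% of all loci). With F-Seq peaks that overlap a HOMER peak it became 2 of 28 (2.81%). It became 1 of 24 with no extension (0.0588%), 1 of 38 with no filter (0.745%) and 3 of 28 without the C18 libraries (4.37%). It also moved with 1 library left out. For C13 against C10 and C18, 0 became 1 unscaled, 4 with HOMER, 2 with the 50000 strongest peaks, 5 with peaks of both callers, 1 with no extension, 2 with no filter, 2 without C18, and 0 to 3 with 1 library left out. Over all loci the shares called there were 8.25% unscaled, 19.8% with HOMER, 11.4% with the 50000 strongest peaks and 21.5% with peaks of both callers, each above the Hox share. They were 5.92% with no extension, 4.41% with no filter and 4.93% without C18. For C10 against C18, 7 of 32 (16.8% of all loci) became 1 of 18 with the 50000 strongest peaks (14.3%). It became 4 of 24 with no extension (13.1%), 2 of 38 with no filter (8.62%) and 4 of 32 with a replicate block (13.97%). This count also moved with 1 library left out. The split of 3 higher and 4 lower became 5 and 1 unscaled, 8 and 0 with HOMER, and 7 and 2 with peaks of both callers. The shares called over all loci were 18.7% unscaled, 45.4% with HOMER and 46.2% with peaks of both callers. The replicate numbers did not pair the libraries, since the correlations of their deviations ran from -0.01 to 0.09, and the replicate block left the other contrasts at 0.

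The adjusted exact permutation p of the Hoxb cluster, 0.0381, became 0.190 unscaled, 0.143 with HOMER, 0.210 with the 50000 strongest peaks, 0.0762 with peaks of both callers, 0.267 without C18 (where the design cannot pass), and 0.0381 to 0.0762 with 1 library left out, the higher value without C2 replicate 2. That of Hoxc became 0.0381 with HOMER. The 3 promoters with a peak in all libraries became 1 when the start base itself had to lie under the peak and 6 without C18, an alternative chosen after seeing the data. Between C10 and C18 the difference turned positive for Hoxb3 (0.30), Hoxc5 (0.53) and Hoxb6 (0.84) with HOMER, and for Hoxb6 with the 50000 strongest peaks (0.22) and with peaks of both callers (1.26).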

Other observations

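The spans of the 4 clusters also hold 22 long noncoding RNA genes of the RefSeq table, chosen after the files were seen. The bodies of 5 were under an F-Seq peak in all 8 libraries: Hoxaas3 and Gm52902 in Hoxa, Hoxb5os in Hoxb, and Hoxd3os1 and Haglr in Hoxd. A further 7 were under a peak in 1 to 7 libraries and 10 under none. The 3 noncoding genes of Hoxc, among them Hotair, which is known to bind Polycomb proteins, were under no F-Seq peak in any library, and HOMER listed Hotair in 2 libraries. Hoxaas2 at the 3' end of Hoxa was under no F-Seq peak and under a HOMER peak in 1 library, while Hoxaas3 further into the cluster was under a peak of both callers in 8 of 8 libraries. These genes overlap Hox bodies, and the lists do not assign a peak to 1 of the overlapping genes.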
